A study of Mus musculus with 12 samples.

Results

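Undifferentiated spermatogonia are the germ cells on the basement membrane of the seminiferous tubule that include the spermatogonial stem cells. A set of 10 genes known from these cells, Gfra1, Ret, Id4, Etv5, Zbtb16, Sall4, Foxo1, Nanos2, Nanos3 and Lin28a, was followed in whole juvenile testes. The genes were listed by name with no threshold on measured values, but earlier results of these data were known when they were chosen. All 10 had probes, 20 of the 45281 probes on the array, and the array's annotation named 19057 genes in all. The probe with the highest mean over the 12 arrays stands for each gene. Testes came from Topaz1-/- (KO) and wild-type (WT) mice of the C57Bl/6N strain, 20 or 15 days after birth (P20 or P15). The 4 groups, KO at P20, WT at P20, KO at P15 and WT at P15, held 3 biological repeats each, and total RNA of each repeat was hybridised to 1 Illumina mouse bead array. The labels describe no other allele, transgene or treatment. The sources used here do not say how the Topaz1 allele was made or whether repeats shared litters.

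The undifferentiated state is maintained by glial cell line-derived neurotrophic factor, GDNF, which Sertoli cells and other somatic cells of the testis secrete. GDNF binds GFRA1 on the spermatogonium, GFRA1 pairs with the receptor tyrosine kinase RET, and their signal raises the transcription factors ETV5 and ID4. The zinc finger proteins ZBTB16 and SALL4 and the forkhead protein FOXO1 act in the nucleus to keep cells undifferentiated, while NANOS2, NANOS3 and LIN28A act on RNA. In the first wave of spermatogenesis of a young mouse, spermatocytes and then spermatids are added above a layer of spermatogonia. In bulk RNA, fewer cells of a type and less RNA per cell cannot be told apart.

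The sequences just upstream of the transcription start are shown for the 4 members that passed the test between the ages in both genotypes and have an entry in the RefSeq promoter table. They place Id4, the member that was higher at P20, beside 3 members that were lower. Each run holds the 250 bases before a start listed for the gene, 5′ to 3′ on the gene's own strand, from assembly GRCm38.p6. Capitals mark GC boxes (GGGCGG or, on the other strand, CCGCCC) and CCAAT boxes (CCAAT or ATTGG), and each run of capitals is 1 motif.
Id4: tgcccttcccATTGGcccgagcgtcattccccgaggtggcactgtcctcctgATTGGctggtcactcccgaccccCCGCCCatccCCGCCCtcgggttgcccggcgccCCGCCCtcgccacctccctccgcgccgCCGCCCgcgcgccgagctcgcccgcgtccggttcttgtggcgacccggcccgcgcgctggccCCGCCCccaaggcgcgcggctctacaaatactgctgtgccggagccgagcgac
Foxo1: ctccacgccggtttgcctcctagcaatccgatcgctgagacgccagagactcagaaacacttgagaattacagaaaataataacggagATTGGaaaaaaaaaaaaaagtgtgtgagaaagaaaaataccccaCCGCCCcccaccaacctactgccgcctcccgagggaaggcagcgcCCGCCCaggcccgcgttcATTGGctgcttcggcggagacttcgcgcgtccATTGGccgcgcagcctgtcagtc
Nanos3: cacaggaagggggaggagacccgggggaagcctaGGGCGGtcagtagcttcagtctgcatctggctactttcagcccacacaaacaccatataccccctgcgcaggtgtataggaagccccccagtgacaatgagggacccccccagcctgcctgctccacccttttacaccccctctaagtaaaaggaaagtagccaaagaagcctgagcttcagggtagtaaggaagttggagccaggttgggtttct
Lin28a: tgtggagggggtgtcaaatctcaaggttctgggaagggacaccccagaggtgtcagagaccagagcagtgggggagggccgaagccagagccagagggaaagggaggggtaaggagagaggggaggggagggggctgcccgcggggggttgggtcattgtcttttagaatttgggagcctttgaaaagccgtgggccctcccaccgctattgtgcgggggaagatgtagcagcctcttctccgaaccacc

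The Id4 window lies at chr13:48260866-48261115 on the plus strand, that of Foxo1 at chr3:52268087-52268336 on the plus strand, that of Nanos3 at chr8:84176553-84176802 on the minus strand and that of Lin28a at chr4:134018817-134019066 on the minus strand. The windows of Id4, Foxo1 and Nanos3 adjoin the ends of their genes' spans. That of Lin28a lies inside the gene's span, chr4:134003330-134019196, before a start downstream of the gene's outer 5′ end. Id4 held 5 GC boxes and 2 CCAAT boxes in a window of 75.6% G and C. Foxo1 held 2 GC boxes and 3 CCAAT boxes at 56.0% G and C. Nanos3 held 1 GC box at 56.4% G and C, and Lin28a, at 61.2%, held neither motif. Over all 32851 windows of the table, 32.7% held a GC box and 33.8% a CCAAT box, and the mean G and C content was 53.2%. Promoter entries matched 7 of the 10 members, and Ret, Zbtb16 and Sall4 had none. The motifs describe these letters, and no binding was measured.

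All values are linear intensities after quantile normalization, without background subtraction, and changes are differences of log2(intensity + 50). Folds were taken from these changes, so they refer to intensity + 50 and differ from ratios of the printed intensities. A change passed where its p-value from limma, adjusted over all 45281 probes by the Benjamini-Hochberg method, was under 0.05, and the precision is limited by the 3 arrays per group. Array medians ran from 128.2 to 143.4, and between 47.1% and 52.3% of probes exceeded the background estimated per array. Age separated the arrays along a first principal component that carried 81.2% of the variance. No probe carried the name Topaz1 (0 in the annotation used), so the genotype labels were not checked against its transcript. Defining markers of the testis were present: of 13 measured Sertoli cell markers, 11 were above background on all 3 arrays of KO P20 and 12 on those of WT P20, KO P15 and WT P15. The summed epididymis markers were 2872, 997 and 3430 on KO P20 replicates 1, 2 and 3 and at most 1235 on the WT P20 arrays, so results at P20 are also given without KO P20 replicates 1 and 3. The summed erythroid markers were highest on KO P20 replicate 2, at 18743.

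Of the 10 members, 8 were above background on all 12 arrays. The exceptions were Gfra1, above it on 6 arrays, and Nanos3, above it on 10. The values of Gfra1 thus lie at the limit of what the array measured. Other probes of the same genes at background on all arrays were 1 of 3 for Ret, 1 of 3 for Sall4 and 2 of 4 for Lin28a.

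**Figure D1:**
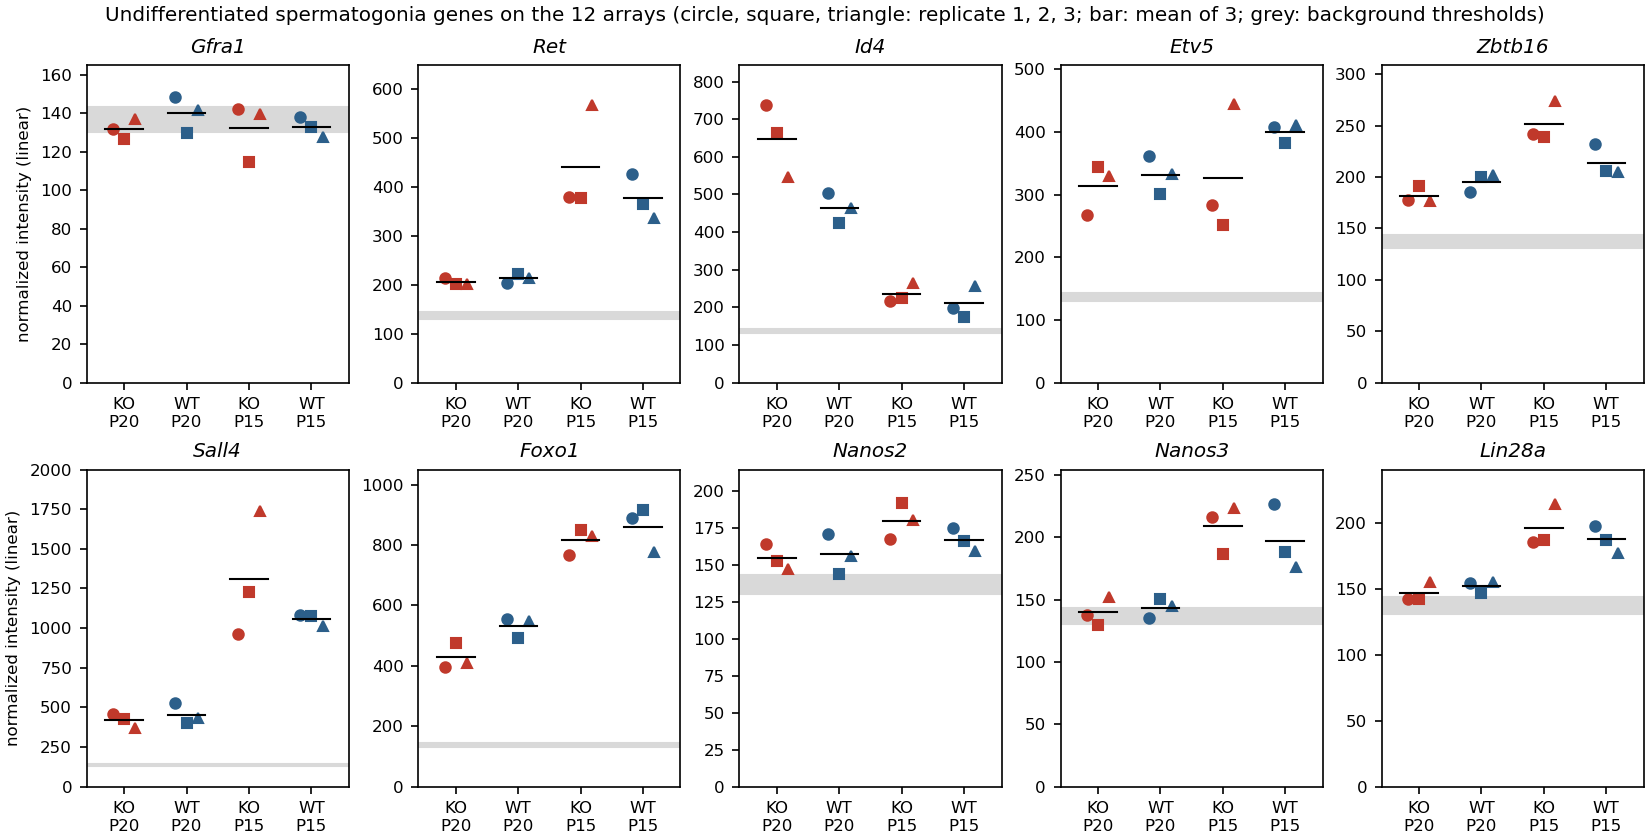
Normalized intensity (linear axis from 0) of the probe that stands for each of the 10 genes on each array, with KO in red and WT in blue, replicates 1, 2 and 3 as circle, square and triangle, and the mean of 3 as a bar. The grey band spans the 12 arrays' background thresholds, 130.5 to 143.5, estimated before normalization. Id4 is high on all 6 P20 arrays, Ret, Sall4 and Foxo1 are high on all 6 P15 arrays, and Gfra1 lies in or near the band in all groups.

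The comparison of KO with WT testes asks whether the loss of Topaz1, named in the series title as a factor of male meiosis, alters transcripts of the germ cells that precede meiosis. At P20 no member passed (0 of 10, with 2, Id4 and Foxo1, at an unadjusted p under 0.05, as were 12.0% of all probes). Over all probes 1.04% passed, 0.731% higher and 0.311% lower in KO. The members' log2 changes lay between -0.28 for Foxo1 and 0.44 for Id4, with a median of -0.05 against 6.18e-05 over all probes, and 9 of 10 were negative. The changes of Ret, Etv5, Sall4, Nanos2, Nanos3 and Lin28a were smaller than their standard errors. Those of Ret, Nanos2, Nanos3 and Lin28a turned positive under 75th percentile scaling or cyclic loess, so the signs show no shared lowering. Id4 had all 3 KO arrays above all 3 WT arrays, as did 8.72% of all probes, and Foxo1 had all KO arrays below, as did 9.26%. Without KO P20 replicates 1 and 3, a choice made after seeing the data, 1 KO P20 array remains. Its spread is taken to be that of the remaining groups, so a count of members passing there cannot decide the question.

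At P15 no member passed either (0 of 10, with 1, Zbtb16, at an unadjusted p under 0.05, as were 7.59% of all probes). Over all probes 0.00442% passed, 0% higher and 0.00442% lower in KO. The changes lay between -0.29 for Etv5 and 0.26 for Sall4, with a median of 0.08 against 0.00136 over all probes, and 7 were positive. By the probes that stand for the genes, Zbtb16 was the 1 member with all 3 KO arrays above all 3 WT arrays, and 0 members had all KO arrays below, beside 5.70% and 5.55% of all probes. The KO effect differed between P20 and P15 for 0 members (1, Zbtb16, at an unadjusted p under 0.05, as were 7.07% of all probes), with a lowest adjusted p of 0.391. Of all probes 0.0552% passed for this difference, 0.0353% higher and 0.0199% lower.

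**Figure D2:**
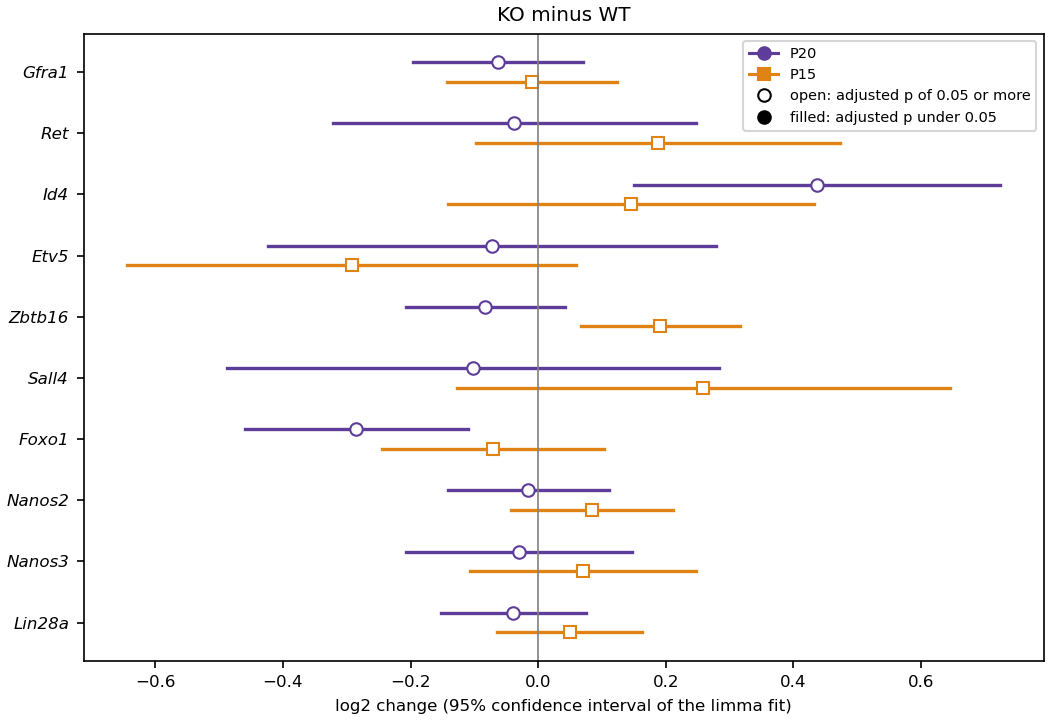
Log2 change of KO minus WT for each gene, with P20 as purple circles above P15 as orange squares. Bars are 95% confidence intervals of the limma fit with 3 arrays per group, and all symbols are open because no adjusted p was under 0.05. Intervals that leave out 0 are those of Id4 and Foxo1 at P20 and of Zbtb16 at P15.

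The comparison of P20 with P15 asks how these transcripts changed while the first wave went through meiosis. In KO testes 1 of 10 members rose, Id4, and 6 fell, namely Ret, Zbtb16, Sall4, Foxo1, Nanos3 and Lin28a. Over all probes 25.6% passed in KO testes, 10.1% higher and 15.5% lower at P20. In WT testes 1 member rose, again Id4, and 5 fell, Ret, Sall4, Foxo1, Nanos3 and Lin28a, with 20.1% of all probes past the threshold, 8.28% higher and 11.8% lower. The members' median log2 change was -0.35 in KO and -0.24 in WT testes, against -0.01 over all probes in either. Arrays of the 2 ages did not overlap for 1 member in the higher and 7 in the lower direction in KO testes, beside 14.0% and 21.3% of all probes. The counts were 1 and 7 in WT testes as well, beside 14.0% and 22.3% of all probes. Whether the age change differs between the genotypes is the same contrast as the difference between the KO effects, for which 0 members passed.

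**Figure D3:**
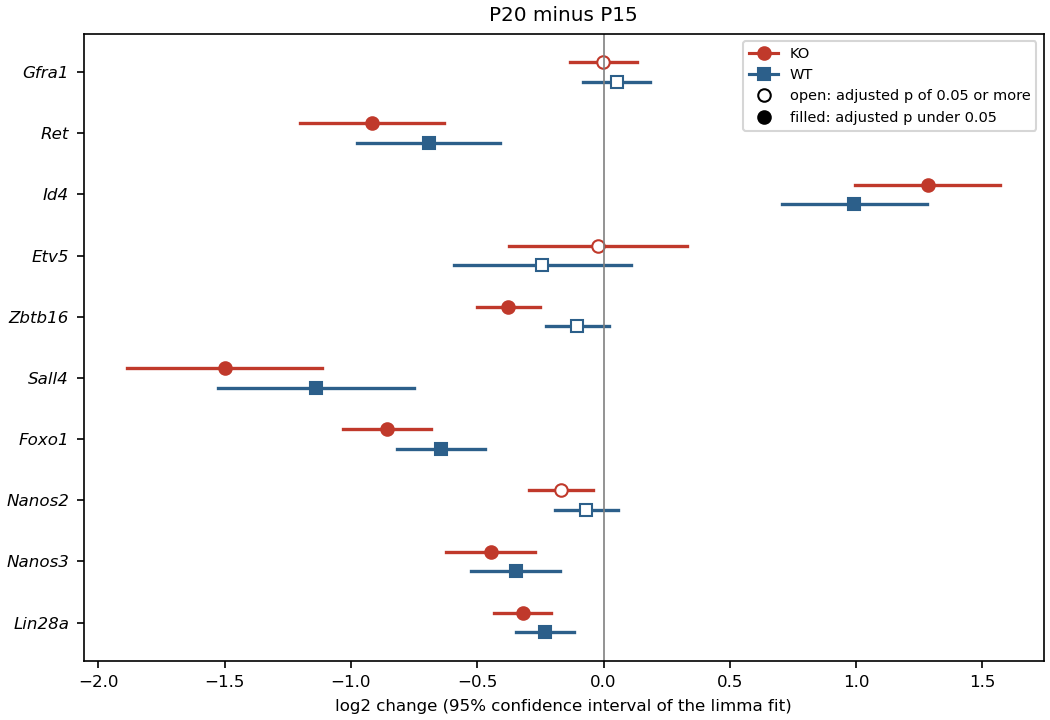
Log2 change of P20 minus P15 for each gene, with KO as red circles above WT as blue squares. Bars are 95% confidence intervals of the limma fit with 3 arrays per group, and filled symbols have an adjusted p under 0.05. Id4 lies to the right of 0 and Ret, Sall4, Foxo1, Nanos3 and Lin28a to the left in both genotypes, and Zbtb16 is filled in KO.

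Gfra1 (chromosome 19) encodes the GDNF co-receptor anchored to the cell surface. At P20 it had 132, 126 and 137 on the KO arrays and 148, 129.8 and 142 on the WT arrays. At P15 it had 142, 115 and 139.6 on the KO arrays and 138, 133 and 128 on the WT arrays. The groups overlapped throughout, and 1 or 2 of the 3 arrays of each group were above background. The log2 change of KO against WT was -0.06 ± 0.06 at P20 and -0.01 ± 0.06 at P15 (SE, n = 3 per group, limma adjusted p = 0.780 and 0.990).

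Ret (chromosome 6) encodes the receptor tyrosine kinase that transmits the GDNF signal. At P20 its intensity was 214, 202 and 202 in KO and 204, 222 and 213 in WT testes. At P15 it was 379, 378 and 568 in KO and 427, 366 and 336 in WT testes. All P20 arrays lay below all P15 arrays, KO P15 replicate 3 stood above all others, and the remaining P15 arrays of both genotypes interleaved. With age Ret fell by 0.92 ± 0.13 on the log2 scale in KO testes and by 0.69 ± 0.13 in WT testes (SE, limma adjusted p = 0.000389 and 0.00332). A second probe of Ret, above background on 11 arrays, changed by -0.51 ± 0.15 in KO testes, which passed, and by -0.46 ± 0.15 in WT testes, which did not (adjusted p = 0.0299 and 0.0566). The change of KO against WT was -0.04 ± 0.13 at P20 and 0.19 ± 0.13 at P15 (adjusted p = 0.956 and 0.806).

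Id4 (chromosome 13) encodes an inhibitor of basic helix-loop-helix transcription factors that marks spermatogonial stem cells in mice, and it has also been described in mouse spermatocytes. The P20 arrays gave 737, 664 and 546 in KO and 505, 424 and 464 in WT testes, with every KO array above every WT array. The P15 arrays gave 218, 226 and 264 in KO and 198, 175 and 258 in WT testes, which overlapped. KO differed from WT at P20 by 0.44 ± 0.13, with a 95% confidence interval of 0.15 to 0.72 (SE, limma adjusted p = 0.172), and by 0.48 without KO P20 replicates 1 and 3. The P15 difference was 0.15 ± 0.13 (adjusted p = 0.867). A second Id4 probe gave 648, 523 and 425 in KO and 464, 417 and 499 in WT testes at P20. There the genotypes overlapped, and the change was 0.17 ± 0.13 (adjusted p = 0.694).

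With age Id4 rose by 1.28 ± 0.13 on the log2 scale in KO testes, 2.43-fold, and by 0.99 ± 0.13 in WT testes, 1.99-fold (SE, limma adjusted p = 4.62e-05 and 0.000392). The second probe rose by 1.13 ± 0.13 in KO and 0.99 ± 0.13 in WT testes (adjusted p = 0.000116 and 0.000420). Id4 was the 1 member whose 6 P20 arrays all lay above its 6 P15 arrays. The difference between the KO effects at P20 and P15 was 0.29 ± 0.18 (adjusted p = 0.832).

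Etv5 (chromosome 16) encodes an ETS transcription factor induced by GDNF in spermatogonia and made by Sertoli cells as well. Intensities at P20 were 267, 344 and 329 in KO and 361, 301 and 332 in WT testes, which overlapped. Those at P15 were 283, 251 and 445 in KO and 407, 383 and 410.5 in WT testes. KO P15 replicate 3 was the highest array, while the other KO P15 arrays lay below all WT P15 arrays. The change of KO against WT was -0.07 ± 0.16 at P20 (SE, limma adjusted p = 0.921). It was -0.29 ± 0.16 at P15 (adjusted p = 0.717), -0.51 without KO P15 replicate 3 and -0.15 without KO P15 replicate 2. The second Etv5 probe gave -0.32 ± 0.11 at P15 (limma unadjusted p = 0.0115, adjusted p = 0.540), on 188, 188 and 266 in KO and 277, 285 and 269 in WT testes. For that probe every KO P15 array lay below every WT P15 array, as for 5.55% of all probes. With age the change was -0.02 ± 0.16 in KO and -0.24 ± 0.16 in WT testes (adjusted p = 0.954 and 0.377).

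Zbtb16 (chromosome 9) encodes a zinc finger repressor, PLZF, that spermatogonial stem cells need for self-renewal. Its P20 intensities were 177, 191 and 177 in KO and 186, 199.7 and 202 in WT testes, where KO replicate 2 lay within the WT range. Its P15 intensities were 242, 239 and 274 in KO and 232, 206 and 205 in WT testes, with every KO array above every WT array. KO differed from WT by -0.08 ± 0.06 at P20 (SE, limma adjusted p = 0.650). The P15 change was 0.19 ± 0.06, 1.14-fold, with a 95% confidence interval of 0.07 to 0.32 on the log2 scale (adjusted p = 0.484). The difference between these effects was -0.27 ± 0.08 (adjusted p = 0.391). With age Zbtb16 fell by 0.38 ± 0.06 in KO testes (adjusted p = 0.000574). In WT testes its change was -0.10 ± 0.06 (adjusted p = 0.265).

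Sall4 (chromosome 2) encodes a zinc finger protein that spermatogonia need for both maintenance and differentiation. At P20 its intensity was 461, 429 and 368 in KO and 526, 404 and 435 in WT testes. At P15 it was 963, 1230.1 and 1738 in KO and 1084, 1074 and 1011 in WT testes. All P20 arrays lay below all P15 arrays, and the KO P15 range enclosed that of WT P15. With age Sall4 fell by 1.50 ± 0.17 on the log2 scale in KO testes, 2.83-fold, and by 1.14 ± 0.17 in WT testes, 2.20-fold (SE, limma adjusted p = 0.000117 and 0.00106). A second Sall4 probe, with another accession in the annotation, fell by 0.96 ± 0.12 in KO and 0.58 ± 0.12 in WT testes (adjusted p = 0.000230 and 0.00752). The change of KO against WT was -0.10 ± 0.17 at P20 and 0.26 ± 0.17 at P15 (adjusted p = 0.893 and 0.800).

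Foxo1 (chromosome 3) encodes a forkhead factor that is held in the cytoplasm by PI3K signalling and is nuclear in undifferentiated spermatogonia of the mouse. The P20 arrays gave 397, 477 and 411 in KO and 554, 492 and 549 in WT testes, with every KO array below every WT array. The P15 arrays gave 767, 849 and 830.3 in KO and 888, 915 and 776 in WT testes, which overlapped. KO differed from WT at P20 by -0.28 ± 0.08, with a 95% confidence interval of -0.46 to -0.11 (SE, limma adjusted p = 0.140), and by -0.14 without KO P20 replicates 1 and 3. The P15 change was -0.07 ± 0.08 (adjusted p = 0.906). A dimmer second probe, above background on 11 arrays, gave -0.03 ± 0.04 at P20 (adjusted p = 0.858). With age Foxo1 fell by 0.86 ± 0.08 in KO and 0.64 ± 0.08 in WT testes, 1.81-fold and 1.56-fold (adjusted p = 2.39e-05 and 0.000250). The second probe changed by -0.10 ± 0.04 in KO and -0.04 ± 0.04 in WT testes and did not pass (adjusted p = 0.157 and 0.648).

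Nanos2 (chromosome 7) encodes an RNA-binding protein that represses differentiation in male germ cells. Intensities at P20 were 164, 152 and 148 in KO and 171, 144 and 156 in WT testes. Those at P15 were 168, 192 and 181 in KO and 175, 166 and 159.7 in WT testes. All values lay close to the background thresholds, and the genotypes overlapped at both ages. Changes of KO against WT were -0.02 ± 0.06 at P20 and 0.08 ± 0.06 at P15 (SE, limma adjusted p = 0.960 and 0.802). With age the change was -0.17 ± 0.06 in KO testes, where the ages did not overlap, and -0.07 ± 0.06 in WT testes (adjusted p = 0.0552 and 0.521). The KO value passed without WT P20 replicate 1 or 2, KO P15 replicate 1 or KO P20 replicate 1, with adjusted p from 0.0314 to 0.0466.

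Nanos3 (chromosome 8), a relative of Nanos2, is needed for survival of primordial germ cells and is expressed in undifferentiated spermatogonia. Its P20 intensities were 138, 129.7 and 152 in KO and 135, 150.2 and 145 in WT testes, with 2 of 3 arrays of each genotype above background. Its P15 intensities were 216, 187 and 223 in KO and 226, 188 and 177 in WT testes. All P20 arrays lay below all P15 arrays, while the genotypes overlapped at both ages. With age Nanos3 fell by 0.45 ± 0.08 in KO and 0.35 ± 0.08 in WT testes (SE, limma adjusted p = 0.00183 and 0.0107). With normexp background correction these changes were -0.87 and -0.67. The change of KO against WT was -0.03 ± 0.08 at P20 and 0.07 ± 0.08 at P15 (adjusted p = 0.942 and 0.910).

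Lin28a (chromosome 4) encodes an RNA-binding protein that blocks maturation of let-7 microRNAs. At P20 its intensity was 142, 143 and 155 in KO and 154, 146 and 155 in WT testes. At P15 it was 186, 187 and 214 in KO and 197, 187 and 177 in WT testes, all above every P20 array. With age Lin28a fell by 0.32 ± 0.05 in KO and 0.23 ± 0.05 in WT testes (SE, limma adjusted p = 0.000933 and 0.00874). A second probe, above background on 9 arrays, changed by -0.04 ± 0.05 in each genotype and did not pass (adjusted p = 0.672 in KO and 0.729 in WT). With the mean of its 4 probes, 2 of which were at background, the WT change was -0.08 and did not pass (adjusted p = 0.0775). Changes of KO against WT were -0.04 ± 0.05 at P20 and 0.05 ± 0.05 at P15 (adjusted p = 0.856 and 0.895).

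At P20 the sum of 10 spermatocyte markers (Sycp1, Sycp2, Dmc1, Piwil1, Pgk2, Ldhc, Ovol1, Hspa2, Adam3 and Spo11) was 102529, 97946 and 98126 in KO and 80892, 89030 and 90156 in WT testes, without overlap. Of these markers 9 were above background on all P20 arrays of each genotype. The summed Sertoli markers were 71438 to 81577 in KO P20 and 87100 to 92982 in WT P20 testes, also without overlap, against 108891 to 112960 in KO P15 and 109269 to 118893 in WT P15 testes. The summed adipocyte markers were 1062 to 1188 in KO P20 and 783 to 866 in WT P20 testes, against 766 to 790.1 in KO P15 and 777 to 867 in WT P15 testes. Between genotypes at P20, 1 of 10 spermatocyte (Ovol1), 1 of 13 Sertoli (Cst9) and 1 of 6 adipocyte markers (Adipoq) passed in limma. Positive changes numbered 9 of 10, 1 of 13 and 5 of 6 in these lists, with medians of 0.22, -0.18 and 0.08. Of the 11 marker lists 3 more did not overlap between the genotypes at P20, all lower in KO. The round spermatid sums were 862 to 908 in KO and 950 to 1293 in WT testes, those of macrophages and leukocytes 4777 to 5126 in KO and 5418 to 6190.1 in WT testes, and those of Leydig cells 3614 to 4078 in KO and 4224 to 5123 in WT testes. At P15 the round spermatid sums were 863 to 918 in KO and 907 to 968 in WT testes. Gene by gene, 0 markers of these 3 lists passed between the genotypes at P20. Changes were positive for 2 of 6 round spermatid markers (median -0.23) and 4 of 8 macrophage and leukocyte markers (median -0.01). They were positive for 3 of 6 Leydig markers (median -0.0004). Of all probes 8.72% were higher and 9.26% lower in KO without overlap. Of 6 round spermatid markers 3 were above background on all 3 arrays of each P20 group. Of 6 adipocyte markers 2 were so in KO P20 and 1 in WT P20. The sums of these 2 lists thus hold much background, which was not subtracted. The genotype differences in the marker sums lie beside the P20 values of Id4 and Foxo1, and the age differences in the spermatocyte and Sertoli sums beside the age changes of the members that passed. Their part in these changes was not tested.

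Most members were high on the same arrays of a P15 group. KO P15 replicate 3 was the highest of its group for 7 of the 10 members and the lowest for 0. WT P15 replicate 1 was the highest of its group for 7 and the lowest for 0, and WT P15 replicate 3 was the lowest for 8. The spermatocyte sum was 24592, 13576 and 10656 on KO P15 replicates 1, 2 and 3 and 9689, 14532 and 27843 on WT P15 replicates 1, 2 and 3. The arrays with the lowest spermatocyte sum in each P15 group, KO replicate 3 and WT replicate 1, were thus those on which most members were highest. The Leydig, pan germ cell and round spermatid sums were also lowest of their groups on both arrays. Leydig sums were 7450, 9479 and 1843 on KO P15 replicates 1, 2 and 3 and 2929, 7689 and 5758 on WT P15 replicates 1, 2 and 3. The Sertoli and erythroid sums were highest on both arrays, though the Sertoli sums of KO P15 replicates 2 and 3, 112669 and 112960, were close. The epididymis sums at P15 were not ranked, as 0 of 8 markers were above background on all 3 arrays of either group. The part of these differences in the members' spread was not tested.

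**Figure D4:**
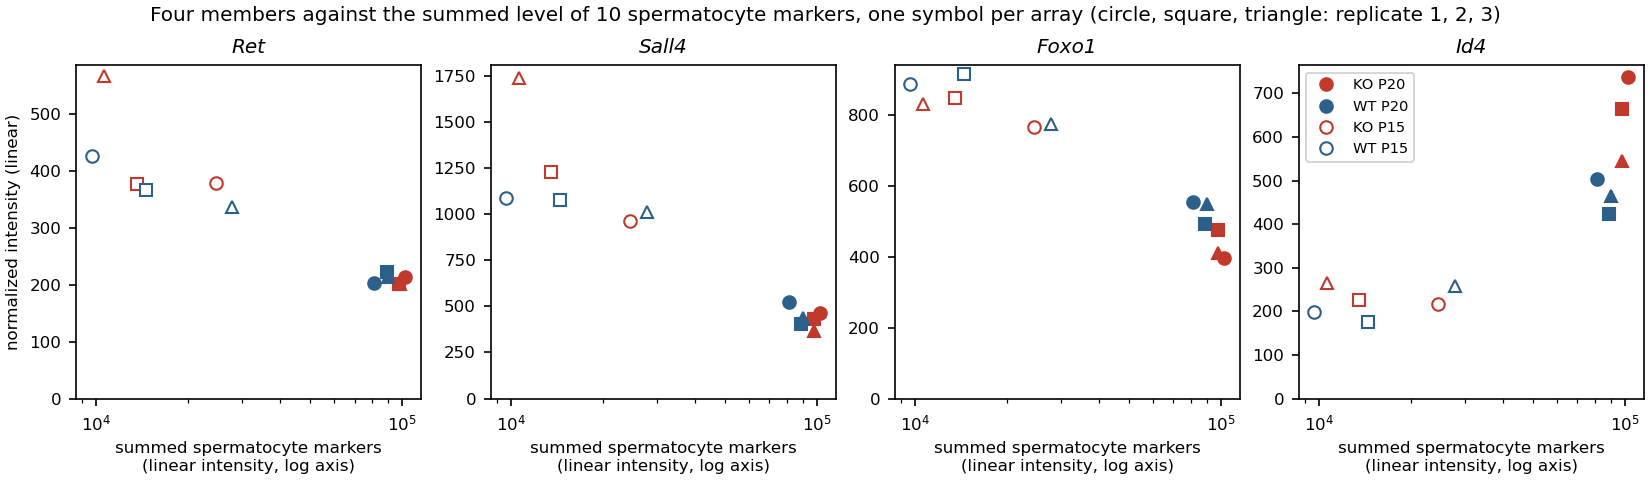
Normalized intensity (linear) of Ret, Sall4, Foxo1 and Id4 against the summed intensity of 10 spermatocyte markers (log axis), with 1 symbol per array, KO in red and WT in blue, P20 filled and P15 open, and replicates 1, 2 and 3 as circle, square and triangle. P20 and P15 arrays form separate clusters, the P20 arrays between 80892 and 102529 and the P15 arrays between 9689 and 27843 on the horizontal axis, and KO P15 replicate 3 has the highest Ret and Sall4 values.

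Other genes of the same cells and pathways were followed in 6 lists, some of which share genes with each other or with the members. For KO against WT 2 of their 105 measured genes passed at P20 and 0 at P15 in limma, while 13 (12.4%) and 7 (6.67%) had an unadjusted p under 0.05, near the 12.0% and 7.59% of all probes. In the list of GDNF signalling and its known responders, 17 of 19 genes were measured, and the median change of KO against WT was -0.01 at P20 and 0.09 at P15. With age 1 rose and 7 fell in KO testes (median -0.22) and 1 rose and 3 fell in WT testes (median -0.16), Id4 and Ret included. The age counts of all 6 lists stand beside 10.1% of all probes higher and 15.5% lower in KO testes. In WT testes the shares of all probes were 8.28% higher and 11.8% lower. Gdnf, the ligand, had 281, 229 and 255 in KO and 326, 279 and 264 in WT testes at P20, and 474, 477 and 571 in KO and 574, 396 and 374 in WT testes at P15. Every P20 array lay below every P15 array, and Gdnf fell by 0.87 ± 0.14 on the log2 scale in KO and 0.53 ± 0.14 in WT testes (SE, adjusted p = 0.000959 and 0.0207). Ccnd2, a cyclin of dividing spermatogonia, fell by 0.88 ± 0.20 in KO and 0.71 ± 0.20 in WT testes, and Pou3f1, a GDNF-induced transcription factor, by 1.13 ± 0.26 in KO testes, with a change of -0.72 ± 0.26 in WT testes that did not pass (adjusted p = 0.0822). Between the genotypes at P20, Ccnd2 and Pou3f1, the brightest of the list, had changes of 0.02 ± 0.20 and -0.01 ± 0.26.

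Of 30 other genes known from undifferentiated spermatogonia, all measured, 14 fell with age in KO testes and 12 in WT testes, and 0 rose in either. Of all probes 15.5% fell in KO and 11.8% in WT testes. The list's median change with age was -0.17 in both genotypes. Uchl1, a ubiquitin hydrolase abundant in spermatogonia, fell by 1.61 ± 0.19 in KO and 1.06 ± 0.19 in WT testes (SE, adjusted p = 0.000125 and 0.00259). Sohlh1, a transcription factor needed for spermatogonial differentiation, fell by 1.39 ± 0.18 in KO and 1.27 ± 0.18 in WT testes. Cd9, a surface tetraspanin, fell by 1.12 ± 0.23 in KO and 1.05 ± 0.23 in WT testes, and Upp1, a uridine phosphorylase, by 1.24 ± 0.23 in KO and 0.97 ± 0.23 in WT testes. Against WT at P20, 0 passed in limma, 4 had an unadjusted p under 0.05 and the median was -0.03. Sohlh1 and Adgra3, the brightest of the list, had changes of -0.02 ± 0.18 and -0.14 ± 0.14. The largest change was that of Uchl1, -0.73 ± 0.19, which did not pass (adjusted p = 0.116). It had 1031, 1027 and 1297 in KO and 2066, 1931 and 1651 in WT testes. Every KO array lay below every WT array, as for 9.26% of all probes. Uchl1 is given here because its values were seen, and 10 of the 30 changes were positive.

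In the list of 14 differentiating spermatogonia genes, Prss50, a testis protease, was the 1 gene that passed at P20. It had 1214, 1260.0 and 1304 in KO and 2043, 1789 and 1615 in WT testes, and fell in KO by 0.51 ± 0.08 (SE, adjusted p = 0.0187). The call ended without KO P20 replicate 1 or 2 and without WT P20 replicate 2. Changes ran from -0.48 to -0.51 and limma adjusted p from 0.0629 to 0.0813. Without KO P20 replicates 1 and 3 together, which leaves 1 KO P20 array, the change was -0.50. Kit, the receptor of differentiating spermatogonia, differed by -0.44 ± 0.09 (adjusted p = 0.0576) and passed without WT P15 replicate 1, WT P15 replicate 3 or KO P15 replicate 3; it was named after its values were seen. With age 2 genes of this list rose in both genotypes, Dmrtc2 (1.44 ± 0.31 in KO and 1.26 ± 0.31 in WT) and Meioc (1.05 ± 0.23 in KO and 0.74 ± 0.23 in WT), while 7 fell in KO and 4 in WT testes, with medians of -0.16 and -0.0075. Crabp1, a retinoic acid binding protein, fell by 1.11 ± 0.15 in KO and 0.72 ± 0.15 in WT testes, and Rhox13, a homeobox gene, by 1.28 ± 0.14 in KO and 0.78 ± 0.14 in WT testes. On P15 replicates 1, 2 and 3 Dmrtc2 had 1214, 786 and 718 in KO and 478, 699 and 1311 in WT testes. Within each P15 group Dmrtc2 and Meioc ranked the arrays as the spermatocyte sum did. Which cells held the transcripts of Dmrtc2 and Meioc was not tested. Of 16 niche factors of somatic cells 1 rose and 6 fell with age in KO and 0 rose and 5 fell in WT testes, with medians of -0.11 and -0.12. Cxcl12, a chemokine that holds stem cells in their niche, fell by 1.03 ± 0.10 in KO and 0.85 ± 0.10 in WT testes, and Inhba, an activin subunit, by 1.12 ± 0.15 in KO and 0.79 ± 0.15 in WT testes. Between genotypes at P20 Cxcl12 and Wnt5a had changes of -0.02 ± 0.10 and -0.10 ± 0.15.

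In the list of FOXO1 and PI3K signalling, 17 of 19 genes were measured, and Pik3cb, a catalytic subunit of PI3K, was the 1 that passed at P20. It had 762, 775 and 732 in KO and 547, 570 and 581 in WT testes and rose in KO by 0.39 ± 0.08 (SE, adjusted p = 0.0489). That call ended without any 1 of the 6 P20 arrays and without WT P15 replicate 1 or KO P15 replicate 2. Changes ran from 0.37 to 0.41 and limma adjusted p from 0.0678 to 0.158. Without KO P20 replicates 1 and 3 together, which leaves 1 KO P20 array, the change was 0.42. With age 4 rose and 6 fell in KO and 1 rose and 4 fell in WT testes, with medians of -0.12 and -0.05. Among these were Ddit4, an inhibitor of mTOR signalling (-1.33 ± 0.11 in KO and -0.87 ± 0.11 in WT), and Foxo3, a relative of Foxo1 (-0.77 ± 0.13 in KO and -0.53 ± 0.13 in WT). Of 14 measured partners of NANOS and LIN28 proteins, of 16 written, 1 rose and 4 fell in KO and 0 rose and 2 fell in WT testes, with medians of 0.01 and -0.08. Of all probes 15.5% fell in KO and 11.8% in WT testes, and 2 of 14 in WT testes is near the latter share. Dnd1, an RNA-binding partner of NANOS2, fell by 0.97 ± 0.18 in KO and 0.95 ± 0.18 in WT testes, and Cnot1, the scaffold of the deadenylase that NANOS2 recruits, rose by 0.82 ± 0.15 in KO testes, with a change of 0.42 ± 0.15 in WT testes that did not pass (adjusted p = 0.0775). Dazl and Cnot7, the brightest of this list, had changes of -0.27 ± 0.27 and -0.36 ± 0.13 between genotypes at P20 and did not pass (adjusted p = 0.797 and 0.283). Cnot7 passed without KO P15 replicate 3.

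Without KO P20 replicates 1 and 3, the GDNF list had a median change with age in KO testes of -0.18. The medians were -0.16 for the other undifferentiated spermatogonia genes, -0.12 for differentiating genes and -0.09 for niche factors. They were -0.15 for the FOXO1 and PI3K list and -0.05 for the partners of NANOS and LIN28 proteins. Fos, of the GDNF list, is named because of its value on the 1 KO P20 array that remained. It had 175, 353 and 197 in KO and 198, 172 and 172 in WT testes at P20, so that both arrays left out lay within the WT range. Over all arrays its change was 0.29 ± 0.18 and did not pass (SE, limma adjusted p = 0.591).

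For the 8 members above background on all arrays, the genes most alike were sought by Pearson correlation of log2 values over the 12 arrays among 9670 genes also above background throughout. Because the ages form separate clusters, the correlation over the 6 arrays of each age is given, as a description of values that share array and normalization. Id4 was most like Cdc42ep3, 4933427D14Rik and Strbp, with 0.94 to 0.99 within P20 and 0.78 to 0.90 within P15. Ret was most like Csk, Foxp4 and Klf7, with 0.22 to 0.64 within P20 and 0.94 to 0.99 within P15. Sall4 was most like Cenpb, Prrc2b and Mmp14, with 0.91 to 0.96 within P20 and 0.93 to 0.96 within P15. Foxo1 was most like Kctd5, Vdac1 and Mcm2, with 0.90 to 0.97 within P20 and 0.15 to 0.96 within P15, where Mcm2 gave the lowest value.

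Zbtb16 was most like Tufm, Edn1 and Pla2g1b, with 0.44 to 0.93 within P20 and 0.94 to 0.98 within P15. Lin28a was most like Tfdp2, Foxp4 and Nedd4, with 0.58 to 0.78 within P20 and 0.95 to 0.98 within P15. Foxp4 was thus in the list of both Ret and Lin28a. Nanos2 was most like S100a13, Galnt2 and Ndufv3, with 0.89 to 0.96 within P20 and 0.94 to 0.96 within P15, and Etv5 was most like Fam204a, Cirbp and Spen, with 0.36 to 0.96 within P20 and 0.73 to 0.87 within P15.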

How the data were processed

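Biotin-labelled total RNA of 12 testes was hybridised to Illumina bead arrays, and BeadStudio, whose version the sources used here do not give, was used per the submitters' processing notes. The deposited table gives each probe's intensity on a linear scale before normalization, and the authors' processed intensity values are the same after quantile normalization: repeating that step here gave values within 0.0124 on the log2 scale. Columns of other samples numbered 0. The intensities were quantile-normalized, 50 was added and log2 taken. Means of the 4 groups were fitted to all 45281 probes with lmFit and eBayes (limma 3.58.1, R 4.3.3; 8 residual degrees of freedom), and two-sided p-values were adjusted over the whole array after Benjamini and Hochberg, with a threshold of 0.05. The fit was tested on simulated data with 200 probes changed between KO and WT at P20. It called 32% of log2 changes of 0.5, 88.5% of those of 1 and 99.5% of those of 2. These rates hold for the simulated probes and were not obtained for the members, of which some lie near background. Errors of changes are standard errors (SE). Values without background subtraction compress changes of dim probes.

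An array's background was the mode of its log2 intensities plus the one-sided 5% normal quantile times the spread below the mode. It was estimated in this way because the data used here hold no detection p-values. Symbols came from the array's annotation, chromosomes and upstream sequences from RefSeq for GRCm38.p6, and the sources used here do not name the probes' own build. All 10 members are named. From each list up to 4 genes past the threshold are named by size, or the 2 of highest mean where none passed, and 3 genes of highest correlation for each member; Prss50 and Pik3cb are the 2 called at P20. The members and lists were chosen with earlier results of these data known. Alternatives were the authors' values, normexp, an offset of 16, 75th percentile scaling, cyclic loess, a filter on dim probes, an intensity trend, a fit restricted to the groups compared, a block for replicate number, the mean of a gene's probes, and each array left out.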

Additional observations from a re-analysis of the deposited data

How the results depend on the processing

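Under every alternative run, 0 members passed for KO against WT at P20, at P15 and for the difference between the ages, while the probes passing at P20 numbered 130 to 659. With age 7 to 8 members passed in KO testes and 5 to 7 in WT testes. The Lin28a fall in WT testes was the 1 call lost, with the mean of its probes. Nanos2 was gained in KO testes under normexp and with the mean of a gene's probes (adjusted p = 0.0484 and 0.0471), and Etv5 in WT testes in the fit of only the groups compared (adjusted p = 0.0386). Normexp made the Lin28a age changes -0.62 in KO and -0.45 in WT testes and that of Zbtb16 in KO testes -0.63, which cyclic loess made -0.24. Normexp also made the age changes of Id4 1.71 in KO and 1.43 in WT testes and those of Sall4 -1.75 and -1.34. The mean of a gene's probes made the age changes of Lin28a -0.10 in KO and -0.08 in WT testes, of Sall4 -0.82 and -0.56, of Foxo1 -0.48 and -0.34 and of Ret -0.48 and -0.38. At P15 the median over all probes was 0.11 under 75th percentile scaling.

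Changes that turned sign were all small and did not pass. Under 75th percentile scaling they were Gfra1 at P15 (0.11) and with age in KO testes (0.0095), and Nanos2 (0.026), Nanos3 (0.024) and Lin28a (0.011) at P20. Under cyclic loess they were Ret (0.010) and Nanos3 (0.0025) at P20, Zbtb16 with age in WT testes (0.0076), and Gfra1 (0.011) and Etv5 (0.10) with age in KO testes. The Gfra1 age change in KO testes was also 0.0102 under normexp and 0.00055 with an offset of 16. Without KO P20 replicates 1 and 3, Etv5 was 0.049 at P20 and 0.10 with age in KO testes. With each array left out in turn, Gfra1 ranged from -0.049 to 0.061 at P15 and from -0.070 to 0.039 with age in KO testes, Lin28a from -0.0042 to 0.080 at P15, Nanos2 from -0.062 to 0.033, Nanos3 from -0.075 to 0.0087 and Etv5 from -0.13 to 0.022 at P20, and Etv5 from -0.17 to 0.19 with age in KO testes. The causes were not tested.

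With the replicate number as a replicate block, 0 members passed at P20 and P15, 7 with age in KO and 6 in WT testes. Correlations of same-numbered arrays' deviations ran from -0.41 to 0.23 over 18 pairs, so the numbers were not taken to pair the samples. Arrays near background limit Gfra1, Nanos2, Nanos3 and Lin28a, and 3 arrays per group can miss small changes.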
